A study of Mus musculus with 8 samples.

Results

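Whole forebrains of 8 mice separated by their content of Hcrt transcripts, and the 4 forebrains rich in Hcrt were compared with the 4 that held almost none. Hcrt encodes the precursor of the orexins (hypocretins), peptides made by a small population of neurons in the lateral hypothalamus. All 8 libraries of the study entered the comparison: a library with at least 100 deposited Hcrt counts was placed in the Hcrt-high group and a library with fewer in the Hcrt-low group. Control mice 2 and 3 and depleted mice 2 and 3 formed the Hcrt-high group, and control mice 1 and 4 and depleted mice 1 and 4 formed the Hcrt-low group, so each group held 2 mice of each diet.

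Every mouse was a male C57BL/6J mouse from a commercial breeder, used at an age of 10 to 20 weeks. Bulk total RNA of each whole forebrain gave 1 library per mouse. The 4 depleted mice ate food with PLX3397, a small-molecule inhibitor of the receptor kinase CSF1R that microglia need to survive, and the 4 control mice ate control food, in both cases for 9 days. The study compared the diets in work on microglia, the ectonucleotidase CD39 and cerebral blood flow, and its labels name no comparison between brain regions and no transgene.

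The hypothalamus lies at the base of the forebrain and holds many small neuron groups, each marked by its own peptide. Orexin and melanin-concentrating hormone neurons lie in its lateral part, oxytocin and vasopressin neurons mainly in the paraventricular and supraoptic nuclei, and Pomc and Agrp neurons in the arcuate nucleus. The mammillary bodies form its posterior end, next to the midbrain, where dopamine neurons lie. A set of homeodomain and other transcription factors lays out these groups during development and remains expressed in many of them.

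The Hcrt counts that defined the groups were 1578 in control mouse 2, 1628 in control mouse 3, 1249 in depleted mouse 2 and 2081 in depleted mouse 3. They were 7 in control mouse 1, 12 in control mouse 4, 7 in depleted mouse 1 and 4 in depleted mouse 4. The library just inside the threshold was therefore depleted mouse 2 and the one just outside was control mouse 4, with no library between 12 and 1249 counts. As CPM (counts relative to library size, scaled by the trimmed mean of M-values, TMM), Hcrt stood at 29.5 ± 3.04 in the Hcrt-high and 0.14 ± 0.0587 in the Hcrt-low mice (SD, n = 4). The groups were chosen by these values, so no test of Hcrt is given, and each p-value below tests association with the Hcrt split in these 8 mice, not the effect of a treatment. The labels call every sample whole forebrain, which includes the hypothalamus. The low Hcrt level does not mean that all hypothalamic transcripts were lacking: depleted mouse 4 held other hypothalamic transcripts at Hcrt-high levels, and control mouse 1 held factors of the posterior hypothalamus, some of them shared with the midbrain, as described below, so the groups are named by Hcrt alone and the counts of calls are also given without these 2 mice.

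The promoters of 4 hypothalamic peptide genes are shown because their transcripts behaved differently across the split. Hcrt defined it and Pmch passed the test. Npvf had few counts outside the Hcrt-high mice, and Oxt was as high in 1 Hcrt-low mouse as in the Hcrt-high mice. Each line gives the 250 bases upstream of the annotated gene start (RefSeq, GRCm38.p6, the build also called mm10), read 5′ to 3′ on the gene's own strand, with matches to TATAAA or TAATTA in capitals. Hcrt lies on the minus strand, with the window at chr11:100762932-100763181. Pmch lies on the plus strand (chr10:88090822-88091071), Npvf on the minus strand (chr6:50654446-50654695) and Oxt on the plus strand (chr2:130575919-130576168).
Hcrt: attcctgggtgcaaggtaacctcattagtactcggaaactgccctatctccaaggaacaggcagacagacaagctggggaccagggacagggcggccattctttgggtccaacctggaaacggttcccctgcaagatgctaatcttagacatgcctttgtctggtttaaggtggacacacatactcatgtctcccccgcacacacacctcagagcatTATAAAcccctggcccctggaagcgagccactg
Pmch: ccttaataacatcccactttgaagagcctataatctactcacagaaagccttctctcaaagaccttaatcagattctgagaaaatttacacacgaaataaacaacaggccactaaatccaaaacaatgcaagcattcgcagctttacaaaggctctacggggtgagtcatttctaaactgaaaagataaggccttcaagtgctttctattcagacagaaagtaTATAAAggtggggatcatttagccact
Npvf: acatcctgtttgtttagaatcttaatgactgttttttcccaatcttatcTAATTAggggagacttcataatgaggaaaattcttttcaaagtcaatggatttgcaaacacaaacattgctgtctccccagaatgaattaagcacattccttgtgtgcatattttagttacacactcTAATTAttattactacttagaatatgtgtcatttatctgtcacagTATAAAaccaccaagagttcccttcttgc
Oxt: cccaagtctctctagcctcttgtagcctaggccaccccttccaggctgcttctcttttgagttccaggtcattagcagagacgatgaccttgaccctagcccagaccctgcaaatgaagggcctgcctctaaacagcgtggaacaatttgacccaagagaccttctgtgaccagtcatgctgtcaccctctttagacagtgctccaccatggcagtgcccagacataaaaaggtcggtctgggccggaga
TATAAA, the core of a TATA box, began 33 bases before the start of Hcrt, 27 before that of Pmch and 29 before that of Npvf, and TAATTA, a core recognised by many homeodomain proteins, began 201 and 74 bases before the start of Npvf. Both strands were searched, the 2 motifs share no match, and TAATTA reads the same on either strand. Of 32536 RefSeq windows of this length, 12.3% held TATAAA and 4.84% held TAATTA, and no match in the Oxt window says only that neither string occurs there. A match describes the letters and does not show a bound site.

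Of 20671 genes tested, 9 differed between the Hcrt-high and Hcrt-low forebrains at an adjusted p under 0.05 (0.0435%; edgeR's quasi-likelihood test with diet as a covariate, Benjamini-Hochberg adjustment, Hcrt left out). Higher in the Hcrt-high mice were 3 genes (0.0145%), Pmch, Gpr101 and Hap1, and lower were 6 (0.029%), Cd34, Kcnab3, Gcnt4, Ephb6, Gm765 and Olfr464. Olfr464 passed the filter on low counts essentially through the Hcrt-low mice, so its call is not used as support. At an unadjusted p under 0.05 there were 1719 genes (8.32%), 849 higher (4.11%) and 870 lower (4.21%). The log2 fold change was positive for 50.9% and negative for 49.1% of all genes, with a median of 0.003. The 4 values of each group lay wholly above those of the other for 468 genes (2.26%) and wholly below for 518 (2.51%). The number of calls depended on the tool and on single mice: DESeq2 called 145 higher and 214 lower, and no gene passed in edgeR without control mouse 2, depleted mouse 1 or depleted mouse 3. Without depleted mouse 2 there were 39 higher and 65 lower, and without control mouse 1 there were 3 and 10.

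Pmch, the precursor of melanin-concentrating hormone (chromosome 10, 88091072 to 88092375, mm10, GENCODE M21, as for the positions below), had the largest fold change of the genes that passed. Its level was 57.5 CPM in control mouse 2, 47.6 in control mouse 3, 49.8 in depleted mouse 2 and 55.2 in depleted mouse 3. The Hcrt-low mice had 2.57 CPM (control 1), 0.46 (control 4), 0.13 (depleted 1) and 0.31 (depleted 4). All 4 Hcrt-high mice were close together, and control mouse 1 kept more Pmch than the other 3 Hcrt-low mice. The log2 fold change was 6.04 (SE 0.57, adjusted p = 0.0124), and Pmch was also the single gene that passed within the depleted mice alone (0.00484% of genes). Pmch shares exon bases with Parpbp on the opposite strand, and the strand setting of the counting is not given in the sources used here. In bulk tissue, fewer cells of a type and less RNA per cell cannot be told apart, for Pmch as for every gene below.

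Gpr101 encodes an orphan G-protein-coupled receptor that is abundant in the hypothalamus (chromosome X, 57496668 to 57503757). The Hcrt-high mice had 30.0, 33.3, 27.0 and 26.6 CPM (in the order control 2, control 3, depleted 2, depleted 3, used for the Hcrt-high mice from here on). The Hcrt-low mice had 14.4, 14.3, 14.8 and 15.7 CPM (in the order control 1, control 4, depleted 1, depleted 4, used from here on). The groups did not overlap, and no Hcrt-low mouse lay near 0: the low group kept 50.8% of the high group's mean (log2 fold change 0.97, SE 0.08, adjusted p = 0.0111).

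Hap1 encodes huntingtin-associated protein 1, a trafficking protein rich in hypothalamic neurons, on the same chromosome as Hcrt (Hap1 at chromosome 11, 100347327 to 100356128; Hcrt at 100761069 to 100762931). It reached 542, 572, 469 and 482 CPM in the Hcrt-high mice and 372, 314, 315 and 312 CPM in the Hcrt-low mice. Control mouse 1 stood above the other Hcrt-low mice, but the groups did not overlap (log2 fold change 0.65, SE 0.07, adjusted p = 0.0288).

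Among the genes that were lower in the Hcrt-high mice, Cd34 and Kcnab3 had the smallest adjusted p. Cd34 encodes a sialomucin of vascular endothelium and blood progenitors (chromosome 1, 194938819 to 194961279). It stood at 25.2, 21.1, 28.3 and 25.0 CPM in the Hcrt-high and at 47.6, 55.7, 50.0 and 55.2 CPM in the Hcrt-low mice. Every Hcrt-low mouse had well over the highest Hcrt-high value (log2 fold change -1.07, SE 0.09, adjusted p = 0.0111). The 8 other endothelial genes listed had a median log2 fold change of 0.00 and none had an unadjusted p under 0.05, and their summed level was 242 to 314 CPM in the Hcrt-high and 234 to 302 CPM in the Hcrt-low mice.

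Kcnab3 encodes a beta subunit of voltage-gated potassium channels (chromosome 11, 69326258 to 69333042). Its values were 27.0, 29.6, 34.2 and 30.7 CPM in the Hcrt-high and 44.9, 43.2, 52.5 and 55.9 CPM in the Hcrt-low mice. The groups were apart, and within each group the depleted mice had the higher values (log2 fold change -0.69, SE 0.06, adjusted p = 0.0124). Ephb6, a kinase-inactive Eph receptor, fell by 0.55 on the log2 scale (SE 0.07, adjusted p = 0.042).

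The remaining lower genes had lower counts. Gcnt4, a glycosyltransferase gene, had 4.53, 4.72, 6.02 and 6.47 CPM in the Hcrt-high and 8.04, 10.5, 11.1 and 11.6 CPM in the Hcrt-low mice (log2 fold change -0.93, SE 0.11, adjusted p = 0.0292). Gm765 stood between 0.49 and 1.17 CPM in the Hcrt-high and between 3.4 and 5.2 CPM in the Hcrt-low mice (log2 fold change -2.45, SE 0.27, adjusted p = 0.0288). The olfactory receptor gene Olfr464 stood between 0.0737 and 0.20 CPM and between 0.50 and 0.88 CPM (log2 fold change -2.39). Olfr464 had 5, 4, 9 and 14 counts in the Hcrt-high and 27, 37, 48 and 43 in the Hcrt-low mice. It therefore passed the filter essentially through the group where it is high, and its call is not support. With a filter of 1 CPM in 4 samples it was not tested and 5 lower calls were left. In all 3 genes the groups did not overlap. Cd34, Kcnab3, Gcnt4 and Gm765 each share exon bases with a gene on the opposite strand, so their counts may include reads of that partner.

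Every one of the 9 calls was lost without some mice. Gpr101 and Cd34 passed in 5 of the 8 fits that each left out a mouse, Pmch and Kcnab3 in 4, Hap1, Gcnt4, Gm765 and Olfr464 in 2 and Ephb6 in 1. The direction stayed the same in all 8 fits for each of the 9 genes, with log2 fold changes from 0.91 to 1.02 for Gpr101 and from -1.123 to -1.003 for Cd34 over all alternatives.

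**Figure D1:**
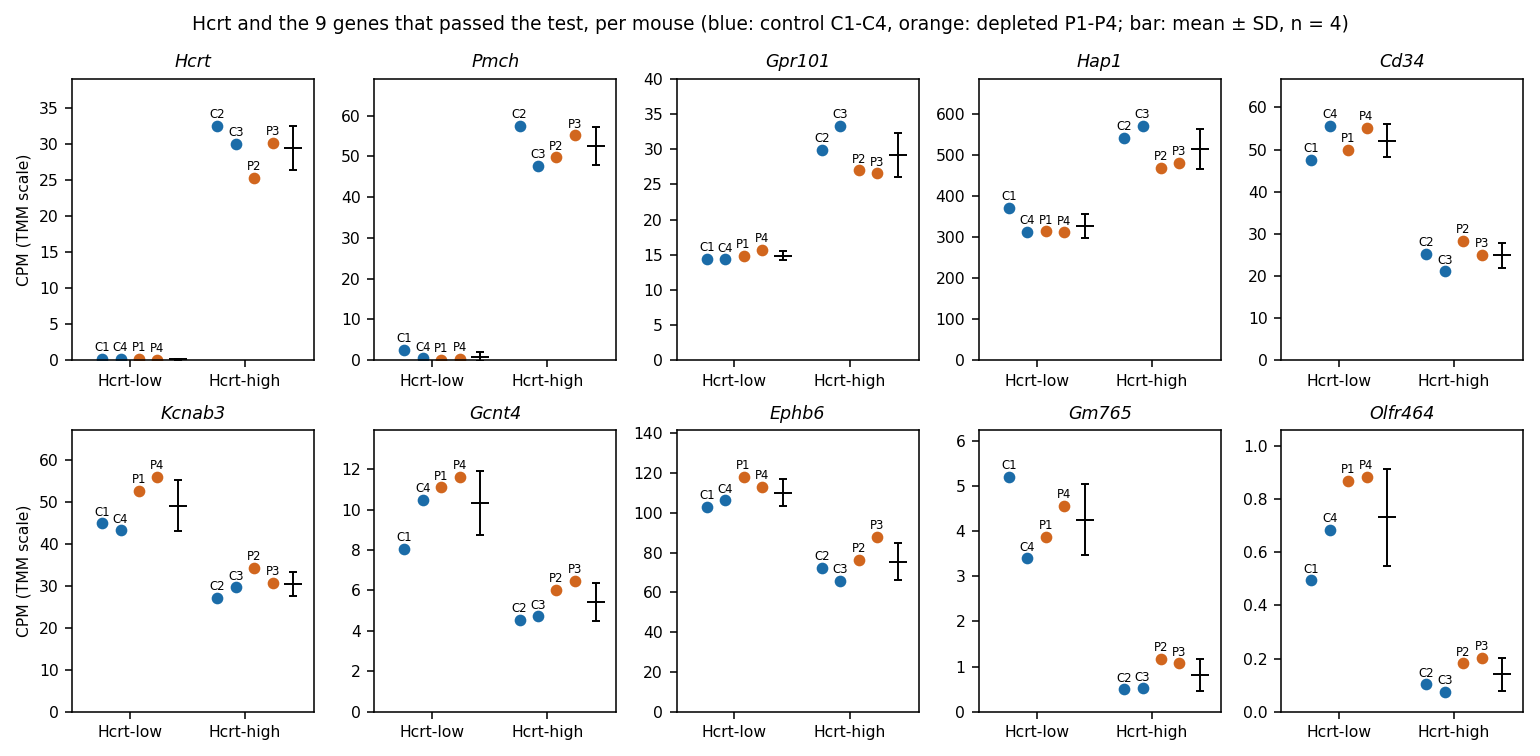
Level in CPM (TMM scale, linear axes) of Hcrt and of the 9 genes that passed the test, 1 point per mouse, with Hcrt-low mice on the left and Hcrt-high mice on the right of each panel; blue points are control (C) and orange points depleted (P) mice, and bars give the mean and SD of 4 mice. Pmch falls from a mean of 52.5 to 0.87 CPM, whereas Gpr101 and Hap1 keep a substantial level in every Hcrt-low mouse.

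Beyond Pmch, hypothalamic peptide genes leaned to the Hcrt-high side without passing the test. Of 15 listed precursors 14 were tested (Kiss1 did not pass the filter on low counts), and all 14 had a positive log2 fold change (50.9% of all genes did). At an unadjusted p under 0.05, 9 were higher (4.11% of all genes), and 1, Pmch, passed the adjusted threshold. Their median log2 fold change was 1.38, against 0.003 for all genes, and the Hcrt-high mice lay wholly above in 7 of the 14 (2.26% of all genes). A weak gene can pass the filter through the counts of the Hcrt-high mice alone, so these counts describe the list and are not support. The summed level of the 14 genes was 173, 188, 146 and 185 CPM in the Hcrt-high mice and 25.9, 18.9, 15.5 and 89.3 CPM in the Hcrt-low mice. Depleted mouse 4 thus lay far above the other 3 Hcrt-low mice.

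Npvf, which encodes the RFamide-related peptides of the dorsomedial hypothalamus, was a weak precursor gene. It stood at 0.66, 0.68, 0.83 and 0.72 CPM in the Hcrt-high mice and at 0.11, 0.0924, 0.0181 and 0 CPM in the Hcrt-low mice. These were 32, 37, 41 and 50 counts against 6, 5, 1 and 0. Npvf thus entered the fit through the Hcrt-high mice alone, and no test of it is given. The groups did not overlap, and the 0 counts of depleted mouse 4 allow up to 3 counts, or 0.0617 CPM (counting error only).

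The vasopressin precursor separated the groups and the oxytocin precursor did not. Avp, which encodes vasopressin, had 52.9, 42.6, 40.1 and 62.8 CPM in the Hcrt-high and 4.03, 1.61, 0.38 and 13.4 CPM in the Hcrt-low mice. The groups were apart, with depleted mouse 4 the highest of the low group (log2 fold change 3.47, SE 0.74, adjusted p = 0.149). Oxt, which encodes oxytocin, had 23.1, 50.7, 16.8 and 29.6 CPM in the Hcrt-high and 0.81, 0.35, 2.48 and 41.4 CPM in the Hcrt-low mice. Depleted mouse 4 therefore held more Oxt than 3 of the 4 Hcrt-high mice, although its Hcrt count was the lowest of all (log2 fold change 2.46, SE 1.38, adjusted p = 0.741). Gal, the galanin precursor, showed the same mouse within the Hcrt-high range, at 6.13 CPM against 4.10 to 7.22 CPM.

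Other peptide genes differed in how much of their level the Hcrt-low mice held. Trh, the precursor of thyrotropin-releasing hormone, had 24.0, 27.7, 22.9 and 21.1 CPM in the Hcrt-high and 11.8, 11.6, 6.27 and 20.1 CPM in the Hcrt-low mice (log2 fold change 0.95, SE 0.29, adjusted p = 0.337), with depleted mouse 4 just below the Hcrt-high mice. Ghrh, the precursor of growth hormone-releasing hormone, stood at 0.63 to 0.76 CPM and at 0.0362 to 0.37 CPM, with 2 counts in depleted mouse 1, and Qrfp and Ucn3 were likewise apart between the groups (log2 fold changes 1.33 and 1.43). The arcuate precursor Pomc had 2.76, 2.60, 5.64 and 1.74 CPM against 2.00, 1.05, 1.11 and 1.52 CPM, and the groups overlapped (log2 fold change 1.14, adjusted p = 0.375). Agrp, which marks the opposing arcuate neurons that drive feeding, hardly separated, at 0.90 to 1.49 CPM against 0.69 to 1.2 CPM (log2 fold change 0.40, SE 0.24, adjusted p = 0.766). Agrp shares exon bases with Ctcf on the opposite strand and Gm5914 on the same strand, so its counts may include reads of these genes. Gnrh1, made by scattered preoptic neurons that drive the gonadal axis, was highest in an Hcrt-low mouse, at 2.43 CPM in depleted mouse 4.

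Transcription factors of the hypothalamus leaned to the same side without passing the test. Of 26 listed genes 25 were tested (Rax was not), and 24 had a positive log2 fold change (50.9% of all genes did). At an unadjusted p under 0.05, 11 were higher (4.11% of all genes), and none passed the adjusted threshold. The groups were apart in 6, all with the Hcrt-high mice above (2.26% of all genes). Their median log2 fold change was 1.04. As for the peptides, these counts describe the list and are not support, since weak members such as Nr5a1 and Six6 passed the filter mainly through the Hcrt-high mice. Six6, a factor of the developing ventral forebrain and eye, had 21, 56, 44 and 12 counts in the Hcrt-high and 6, 0, 1 and 15 in the Hcrt-low mice. Nr5a1, the steroidogenic factor of the ventromedial nucleus, had 0.95, 1.14, 1.6 and 0.64 CPM in the Hcrt-high and 0.11, 0.0739, 0 and 0.14 CPM in the Hcrt-low mice. These were 46, 62, 79 and 44 counts against 6, 4, 0 and 7, so Nr5a1 entered the fit through the Hcrt-high mice alone and no test of it is given. Fezf1, a zinc-finger factor of the same nucleus, had 3.33, 2.32, 2.59 and 2.97 CPM against 0.46, 0.46, 0.60 and 1.36 CPM (log2 fold change 2.03, SE 0.32, adjusted p = 0.0746). In both genes every Hcrt-low mouse lay below every Hcrt-high mouse.

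Otp and Sim1, which specify paraventricular and supraoptic neurons, also separated the groups. Otp stood at 7.25, 8.6, 7.05 and 7.77 CPM against 2.49, 0.61, 0.47 and 3.62 CPM (log2 fold change 2.11, SE 0.55, adjusted p = 0.235). Sim1 stood at 2.43 to 3.07 CPM against 0.0924 to 1.49 CPM (log2 fold change 1.90, SE 0.50, adjusted p = 0.245). Nkx2-1, an early determinant of the ventral hypothalamus that some telencephalic interneurons also express, had 6.15, 5.36, 4.95 and 6.59 CPM against 1.85, 1.44, 3.39 and 5.80 CPM. Depleted mouse 4 again reached the Hcrt-high range.

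**Figure D2:**
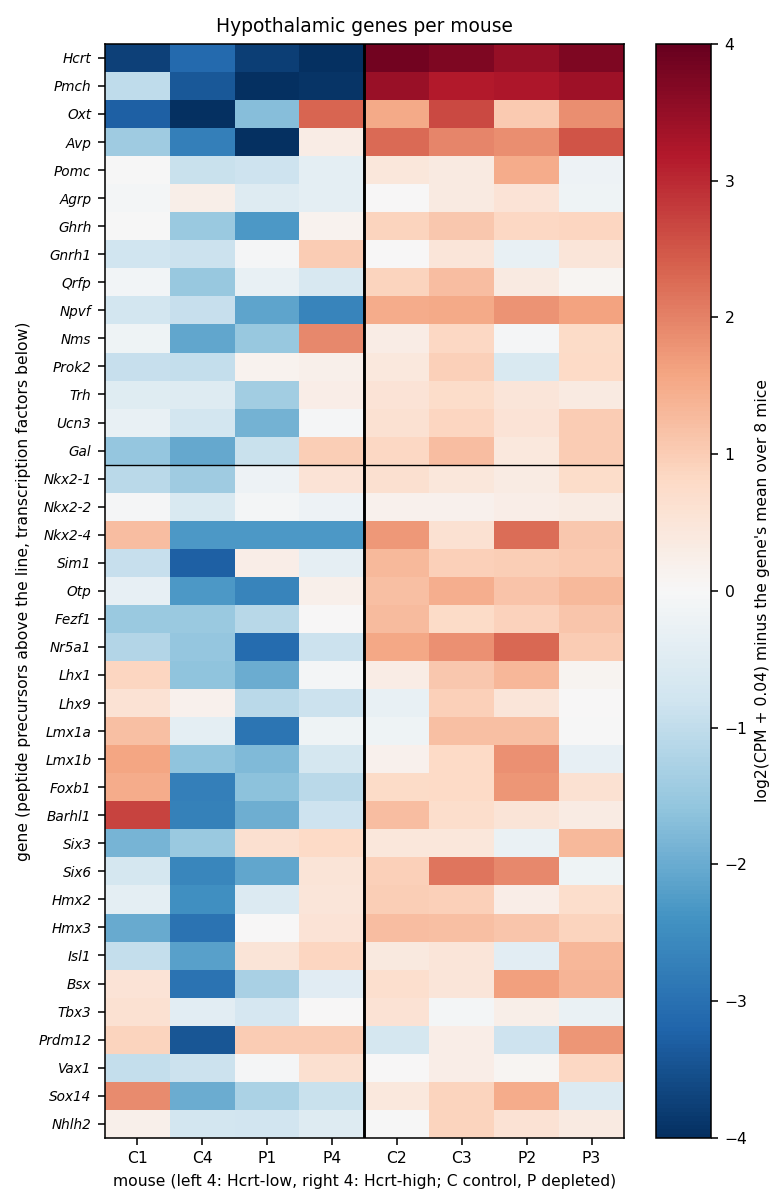
Heat map of hypothalamic peptide precursor genes (above the line) and transcription factor genes (below) in each mouse, the 4 Hcrt-low mice on the left and the 4 Hcrt-high mice on the right; colour is log2(CPM + 0.04) minus the gene's mean over the 8 mice. Control mouse 4 and depleted mouse 1 are low for most rows, depleted mouse 4 is high for Oxt (41.4 CPM), and control mouse 1 is high for some factors such as Barhl1 (3.24 CPM).

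The Hcrt-low libraries differed among themselves in hypothalamic transcripts. Depleted mouse 4 held Oxt, Gal and Nkx2-1 at Hcrt-high levels, as given above. Control mouse 1 held factors that the mammillary and posterior hypothalamus express, of which Lmx1b and Barhl1 are also expressed in the midbrain or hindbrain: its levels were 1.85 CPM of Lmx1b, 1.41 of Foxb1 and 3.24 of Barhl1. The Hcrt-high mice had 0.46 to 2.22 CPM of Lmx1b, 0.75 to 1.74 of Foxb1 and 0.59 to 1.15 of Barhl1, and the other 3 Hcrt-low mice had at most 0.35, 0.21 and 0.25 CPM. The same mouse had the highest summed level of midbrain and hindbrain genes (15.0 CPM), and the part of that tissue in these values was not tested. With control mouse 1 and depleted mouse 4 left out together, a choice made after these values were seen, 118 genes were higher and 124 lower in the Hcrt-high mice (edgeR).

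Genes of the neighbouring midbrain cut across the split. Slc6a3, the dopamine transporter of midbrain dopamine neurons, stood at 1.75, 28.7, 33.5 and 0.57 CPM in the Hcrt-high and at 27.2, 1.31, 0.13 and 0.31 CPM in the Hcrt-low mice. Control mouse 1, control mouse 3 and depleted mouse 2 were high and the other 5 mice low, so both groups held mice of each kind. Th, the rate-limiting enzyme of dopamine synthesis, was highest in the same 3 mice, at 23.4, 24.2 and 26.1 CPM, against 1.5 to 7.9 CPM in the other 5. The log2 fold changes of Slc6a3 (2.30, adjusted p = 0.852) and Th (1.03, adjusted p = 0.845) therefore rest on groups that overlap widely. Of 16 listed midbrain and hindbrain genes 6 were tested, and their summed level was 2.04 to 8.24 CPM in the Hcrt-high and 1.11 to 15.0 CPM in the Hcrt-low mice.

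The highest sum of midbrain and hindbrain genes belonged to control mouse 1. It held 2.38 CPM of En1, 4.76 of Gata3 and 2.42 of Pax7, transcription factors of the midbrain, whereas Pax7 had no count in the other 3 Hcrt-low libraries (control 4, depleted 1 and depleted 4), which allows up to 0.0555, 0.0544 and 0.0617 CPM. It also held 8.81 CPM of Tph2, the serotonin-synthesis enzyme of raphe neurons, against 0.62 to 1.66 CPM in the other 7 mice. Slc6a5, a glycine transporter of the hindbrain and spinal cord, was highest in control mouse 2 (4.73 CPM) and control mouse 1 (2.64 CPM). Of the listed genes that were not tested, Hoxb5 had 62 counts in control mouse 1, 48 in control mouse 2 and 12 in depleted mouse 3. Hoxa5 had 29, 38 and 9 counts in these mice, and neither gene had a count in the others. Phox2a and Gabra6, also not tested, were not highest in control mouse 1 or 2.

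**Figure D3:**
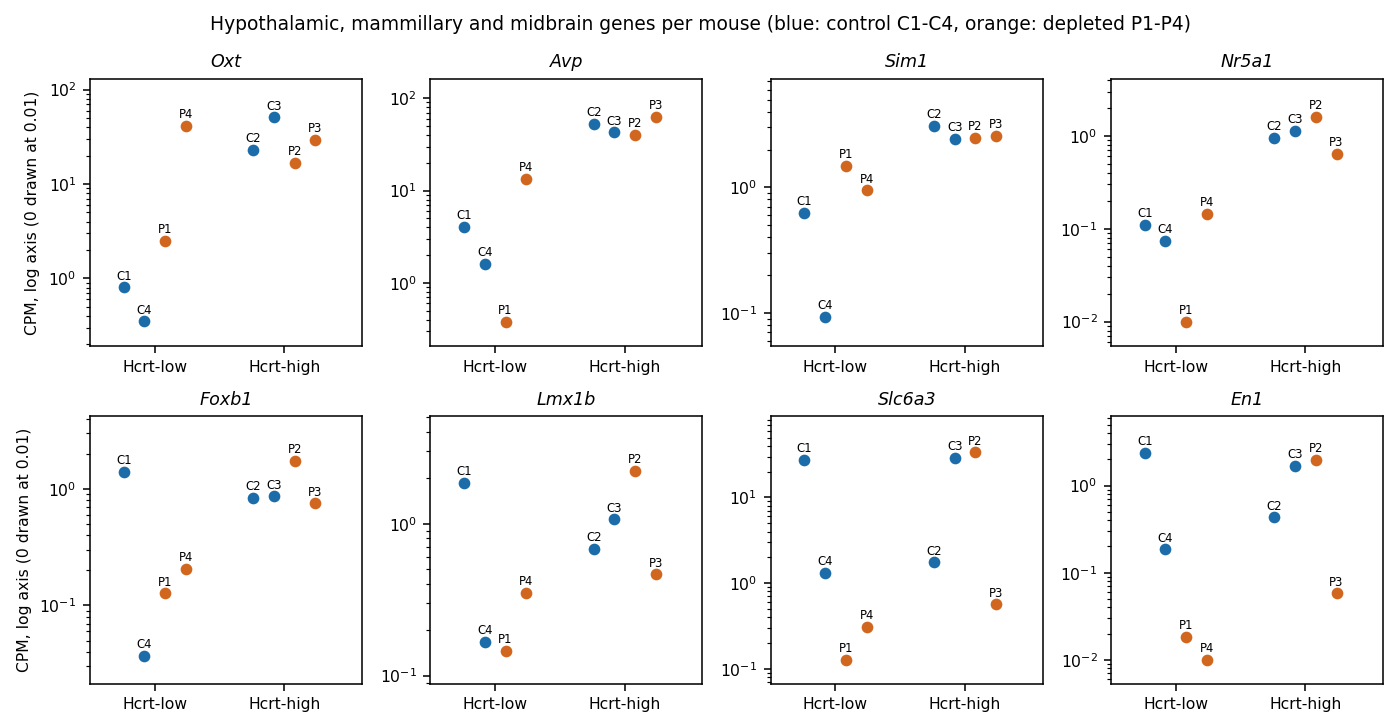
Levels in CPM (log axis, a value of 0 drawn at 0.01) of hypothalamic, mammillary and midbrain genes in each mouse, with Hcrt-low mice on the left and Hcrt-high mice on the right of each panel; blue points are control (C1 to C4) and orange points depleted (P1 to P4) mice. Oxt of depleted mouse 4 (41.4 CPM) lies among the Hcrt-high mice, and Slc6a3 is high in control mouse 1 (27.2 CPM), control mouse 3 (28.7 CPM) and depleted mouse 2 (33.5 CPM).

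Receptors through which the hypothalamic peptides and peripheral hormones act are spread over the brain. Of 26 receptor genes tested, 9 were higher (4.11% of all genes) and 2 lower (4.21% of all genes) at an unadjusted p under 0.05. A positive log2 fold change was found for 22 of the 26 (50.9% of all genes had one). None passed the adjusted threshold, and the median log2 fold change was 0.20. This list too was chosen with earlier results known, so its counts describe it and are not support. The galanin receptor gene Galr1 had 1.5, 1.18, 1.64 and 1.72 CPM in the Hcrt-high and 0.50, 0.44, 0.80 and 0.86 CPM in the Hcrt-low mice, without overlap (log2 fold change 1.25, SE 0.19, adjusted p = 0.0742). Tacr3, the neurokinin B receptor, was also apart, at 7.25 to 10.2 CPM against 4.01 to 6.31 CPM (log2 fold change 0.77, adjusted p = 0.14). The receptors of the 2 lateral hypothalamic peptides stood near 0: the orexin receptor genes stood at 0.12 (Hcrtr1, SE 0.23) and 0.19 (Hcrtr2, SE 0.16, adjusted p = 0.874) and the melanin-concentrating hormone receptor gene Mchr1 at -0.10 (SE 0.13, adjusted p = 0.941) on the log2 scale. The leptin receptor gene Lepr stood at 0.17 (SE 0.15) and the melanocortin receptor gene Mc4r at 0.09 (SE 0.13).

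Neuropeptides that the cortex, striatum and other regions also make had no common direction. Of 14 such genes tested, 2 were higher (4.11% of all genes) and 3 lower (4.21% of all genes) at an unadjusted p under 0.05. The median log2 fold change was 0.19. Tac2, the neurokinin B precursor, had 15.3, 13.8, 10.9 and 14.3 CPM against 6.49, 8.26, 7.76 and 9.87 CPM, without overlap (log2 fold change 0.75, SE 0.15, adjusted p = 0.14). Cck, abundant in cortical neurons, had 153, 113, 150 and 81.3 CPM against 210, 195, 163 and 156 CPM, also without overlap but in the opposite direction (log2 fold change -0.53, SE 0.17, adjusted p = 0.376).

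Genes of peptide processing and dense-core vesicles gave a median log2 fold change of 0.00 over 13 members. At an unadjusted p under 0.05, 3 were higher (4.11% of all genes) and 1 lower (4.21% of all genes). Scg2, a granin of dense-core vesicles, had 317, 366, 337 and 374 CPM in the Hcrt-high and 251, 206, 275 and 270 CPM in the Hcrt-low mice, without overlap (log2 fold change 0.48, SE 0.09, adjusted p = 0.114). Baiap3, which acts in dense-core vesicle release, had 172, 205, 146 and 192 CPM against 96.8, 45.2, 84.6 and 121 CPM (log2 fold change 1.06, SE 0.25, adjusted p = 0.199). The convertase gene Pcsk1 overlapped fully (log2 fold change -0.14, adjusted p = 0.928).

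Transmitter genes pointed to the same side with wide spread. Of 10 tested, 9 had a positive log2 fold change (50.9% of all genes did) and 3 were higher at an unadjusted p under 0.05 (4.11% of all genes). Slc17a6, the vesicular glutamate transporter of thalamic, hypothalamic and midbrain neurons, had 52.3, 83.4, 74.5 and 58.4 CPM against 63.4, 32.2, 36.4 and 36.0 CPM (log2 fold change 0.69, SE 0.22, adjusted p = 0.363). Control mouse 1 again lay within the Hcrt-high range. Hdc, the histamine-synthesis enzyme of tuberomammillary neurons, had 5.52, 2.89, 5.80 and 6.18 CPM against 4.40, 1.33, 2.01 and 2.71 CPM, with control mouse 3 low in its group and control mouse 1 high in its own (log2 fold change 0.95, SE 0.37, adjusted p = 0.504).

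Imprinted genes, which are expressed from 1 parental copy and several of which are abundant in the hypothalamus, leaned to the Hcrt-high side. Of 21 tested, 18 had a positive log2 fold change (50.9% of all genes did), 13 were higher at an unadjusted p under 0.05 (4.11% of all genes) and none lower, and none passed the adjusted threshold. The Hcrt-high mice lay wholly above in 7 (2.26% of all genes), and the median log2 fold change was 0.32. This list was chosen with earlier results of these data known, so its counts describe it and are not support. Usp29 had 63.3, 70.8, 61.3 and 73.7 CPM against 46.6, 39.4, 55.8 and 51.7 CPM (log2 fold change 0.49, SE 0.10, adjusted p = 0.14). Grb10, which encodes an adaptor that restrains insulin and growth factor signalling, had 80.0, 95.3, 84.2 and 96.8 CPM against 65.2, 54.3, 67.4 and 74.9 CPM (log2 fold change 0.45, SE 0.09, adjusted p = 0.144). Both genes were apart between the groups.

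Dlk1 and Asb4 showed larger differences among the imprinted genes. Dlk1, a Delta-like membrane protein gene, had 64.0, 91.8, 74.8 and 69.9 CPM against 42.6, 15.8, 28.0 and 46.3 CPM (log2 fold change 1.19, SE 0.29, adjusted p = 0.212). Asb4 had 3.68, 7.42, 5.13 and 4.98 CPM against 1.70, 0.72, 2.16 and 2.88 CPM (log2 fold change 1.58, SE 0.35, adjusted p = 0.167). Magel2 and Ndn, neighbours in the Prader-Willi syndrome region, stood at 0.98 (adjusted p = 0.303) and 0.47 (adjusted p = 0.21), and depleted mouse 4 reached the Hcrt-high range for Magel2, at 22 against 19.1 to 26.9 CPM.

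**Figure D4:**
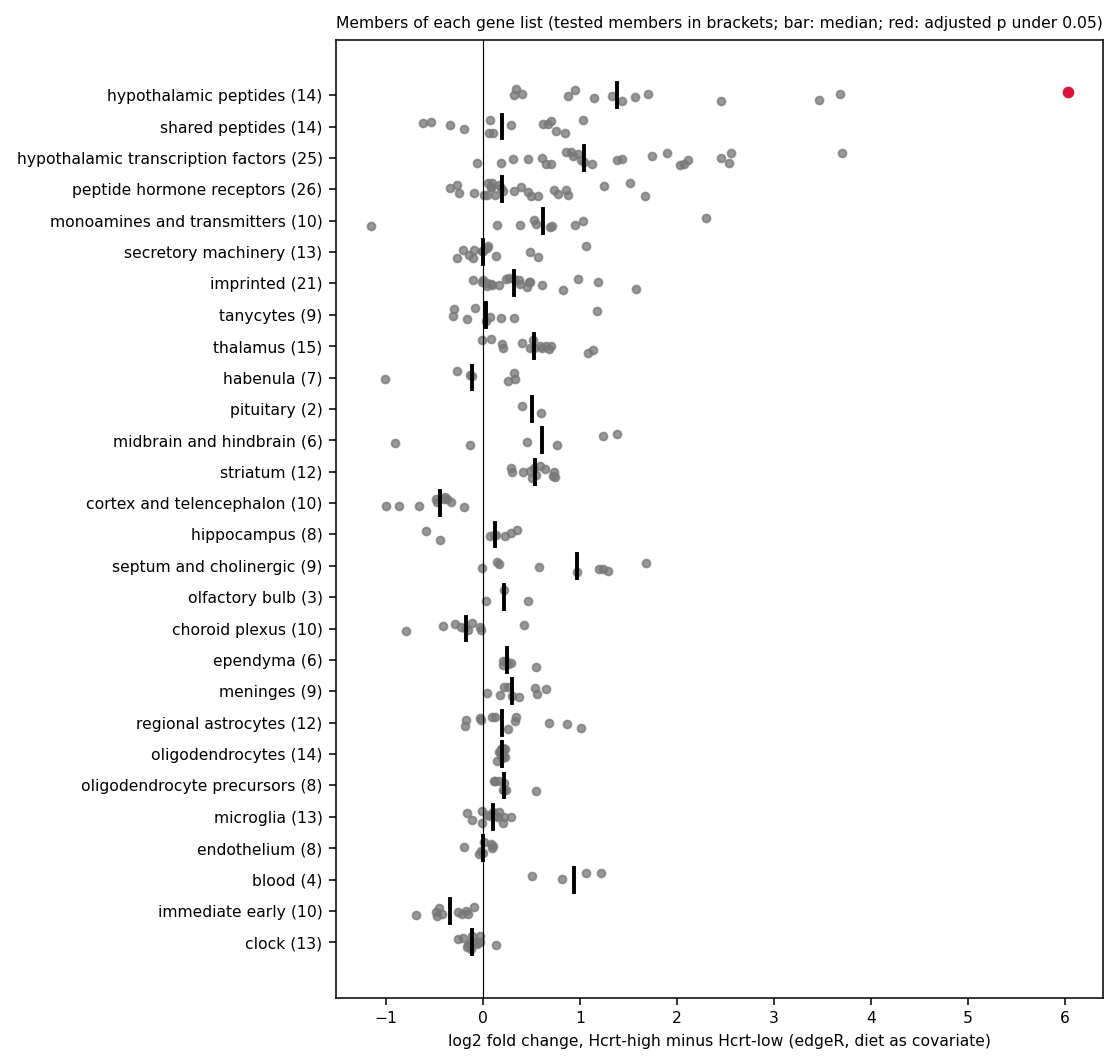
Log2 fold change of Hcrt-high against Hcrt-low forebrains (edgeR, diet as a covariate) for each tested member of the 28 gene lists, 1 point per gene, with the number tested in brackets, a bar at the median and genes past an adjusted p of 0.05 in red. Hypothalamic peptides (median 1.38) and transcription factors (1.04) lie furthest to the right, cortical genes (-0.44) furthest to the left, and Pmch is the single red point.

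Cortical genes leaned the other way. All 10 tested genes of the cortex and dorsal telencephalon had a negative log2 fold change (49.1% of all genes did), and the median was -0.44. At an unadjusted p under 0.05, 5 were lower (4.21% of all genes), and none passed the adjusted threshold. The Hcrt-high mice lay wholly below in 3 (2.51% of all genes). As for the imprinted genes, the list was chosen with earlier results known, so these counts describe it and are not support. Emx1, a factor of the cortical primordium, had 9.16, 7.37, 10.8 and 5.54 CPM in the Hcrt-high and 15.8, 17.1, 13.7 and 13.6 CPM in the Hcrt-low mice (log2 fold change -0.87, SE 0.19, adjusted p = 0.148). Cux2, a factor of upper-layer neurons, had 78.6, 73.9, 77.4 and 63.4 CPM against 86.2, 105, 94.7 and 95.2 CPM (log2 fold change -0.38, SE 0.09, adjusted p = 0.168). In both genes the groups did not overlap, and both were present in every library. CPM are shares of a library, so these levels are relative to the rest of each sample.

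Striatal genes had opposite signs in the 2 diets. All 12 striatal genes tested were positive over the 8 mice (median 0.53), as were 50.9% of all genes. However, all 12 were positive within the control mice and all 12 negative within the depleted mice, and none passed. Rgs9, a striatal regulator of G-protein signalling, had 116, 74.8, 53.8 and 243 CPM against 16.7, 34.9, 191 and 192 CPM (log2 fold change 0.74, SE 0.59, adjusted p = 0.859). The interaction of diet and split for Rgs9 had an unadjusted p of 0.0304 and did not pass (the smallest adjusted interaction p of the list was 0.9996). Chat, the acetylcholine-synthesis enzyme of cholinergic neurons, had 6.98, 7.59, 4.48 and 12.8 CPM against 0.62, 1.65, 8.5 and 9.37 CPM, so that the 2 control Hcrt-low mice stood apart from the other 6. Slc5a7, the choline transporter of the same neurons, stood at 1.24 on the log2 scale (SE 0.51, adjusted p = 0.546).

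Thalamic genes were mostly positive, with 14 of 15 above 0 (50.9% of all genes were) and a median of 0.52. However, 2 were higher at an unadjusted p under 0.05 (4.11% of all genes) and in none were the groups apart. Tcf7l2, a factor of thalamic and habenular neurons, had 10.2, 37.8, 22.4 and 26.7 CPM against 26.9, 6.49, 10.4 and 17.4 CPM, and the groups overlapped (log2 fold change 0.67, SE 0.47, adjusted p = 0.817). Slitrk6, a synaptic adhesion gene, stood at 1.09 (adjusted p = 0.394) on the log2 scale. Hippocampal genes had a median of 0.12 over 8 members and habenular genes -0.12 over 7, and no member of either had an unadjusted p under 0.05. Of 10 pituitary genes 2 were tested: Tshb had 1.57 to 2.00 CPM against 1.2 to 1.45 CPM (log2 fold change 0.40, adjusted p = 0.516), and Lhb overlapped.

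Among glial lists, the regional astrocyte list, which also holds general astrocyte genes such as Gfap and Aqp4, had the most genes with a low p. Those genes were all higher in the Hcrt-high mice, while the other members of the list went either way. Of its 12 genes 8 were positive and 4 negative, with a median log2 fold change of 0.19. Summed levels overlapped, at 2927 to 3533 CPM in the Hcrt-high and 2809 to 3424 CPM in the Hcrt-low mice. At an unadjusted p under 0.05, 4 were higher (4.11% of all genes), namely Agt, Slc6a11, Slc6a9 and Itih3, and none lower. Slc6a11, the GABA transporter GAT-3, had 190, 276, 230 and 200 CPM against 168, 121, 129 and 141 CPM (log2 fold change 0.68, SE 0.14, adjusted p = 0.133). Slc6a9, the glycine transporter GlyT1, had 30.8, 37.6, 35.6 and 34.9 CPM against 28.1, 26.2, 26.8 and 28.7 CPM (log2 fold change 0.34, SE 0.07, adjusted p = 0.152). Both were apart between the groups. Agt, the angiotensinogen gene, overlapped, with control mouse 1 at 89.8 CPM among Hcrt-high values of 76.3 to 116 CPM.

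All 14 oligodendrocyte genes were positive (50.9% of all genes were), within a narrow range of log2 fold change from 0.14 to 0.23. None had an unadjusted p under 0.05. The 8 genes of oligodendrocyte precursors had a median of 0.21, and C1ql1 was the one with an unadjusted p under 0.05 (log2 fold change 0.54, adjusted p = 0.302). Tanycytes, the specialised ependymal cells that line the floor of the third ventricle, gave a median of 0.03 over 9 genes. Gpr50, an orphan receptor gene of tanycytes, was nevertheless apart, at 1.52, 1.71, 2.02 and 1.58 CPM against 0.72, 0.43, 0.98 and 0.99 CPM (log2 fold change 1.17, SE 0.23, adjusted p = 0.131). The median of 13 microglial genes was 0.10 and none had an unadjusted p under 0.05, with summed levels of 16.1 to 330 CPM in the Hcrt-high and 17.5 to 283 CPM in the Hcrt-low mice, and in each group the 2 depleted mice were the lowest.

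The same contrast was computed separately in the control and in the depleted mice, 2 against 2 in each, with no mouse in common. Of 13936 genes whose log2 CPM averaged 1 or more, 142 differed by at least 2-fold in the control mice and 58 in the depleted mice. In both, 17 genes did so in the same direction, 12% of the first set and 29.3% of the second, and 2 did so in opposite directions. The 6 that were higher in both were Pmch, Avp, Otp, Asb4, Arhgap36 and Igsf1. Pmch stood at 5.11 in the control and 7.93 in the depleted mice on the log2 scale, Avp at 4.08 and 2.92, and Otp at 2.35 and 1.87. Igsf1, whose product acts in the pituitary and hypothalamus, stood at 1.07 and 1.05, and Arhgap36 at 1.68 and 1.02.

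The 11 genes that were lower by at least 2-fold in both diets were Trbc2, Serpinb8, Tcap, Gm29674, Gm40518, Gm11549, Gm13306, Myl4, Hkdc1, 9130024F11Rik and Wnt10a. Gm11549 was the most abundant, with 14.8, 8.22, 18.2 and 15.1 CPM in the Hcrt-high and 23.9, 35.0, 36.3 and 32.0 CPM in the Hcrt-low mice (adjusted p = 0.0767 over all 8 mice). Wnt10a, a secreted Wnt ligand gene, had 3.07, 1.73, 2.79 and 2.85 CPM against 5.02, 5.73, 5.80 and 5.59 CPM (adjusted p = 0.0746). In both the groups were apart. Across the 13936 genes the log2 fold changes of the 2 diets had a Pearson correlation of 0.331. Genes are not independent replicates, and libraries of the same mice share depth and composition over genes. Within the control mice 0 genes passed in edgeR, with 1245 at an unadjusted p under 0.05, whereas DESeq2 called 237. Within the depleted mice edgeR called 1 (993 unadjusted) and DESeq2 80. Single mice decided these counts: edgeR called 1115 genes without control mouse 1, 300 without control mouse 4 and 222 without depleted mouse 3.

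**Figure D5:**
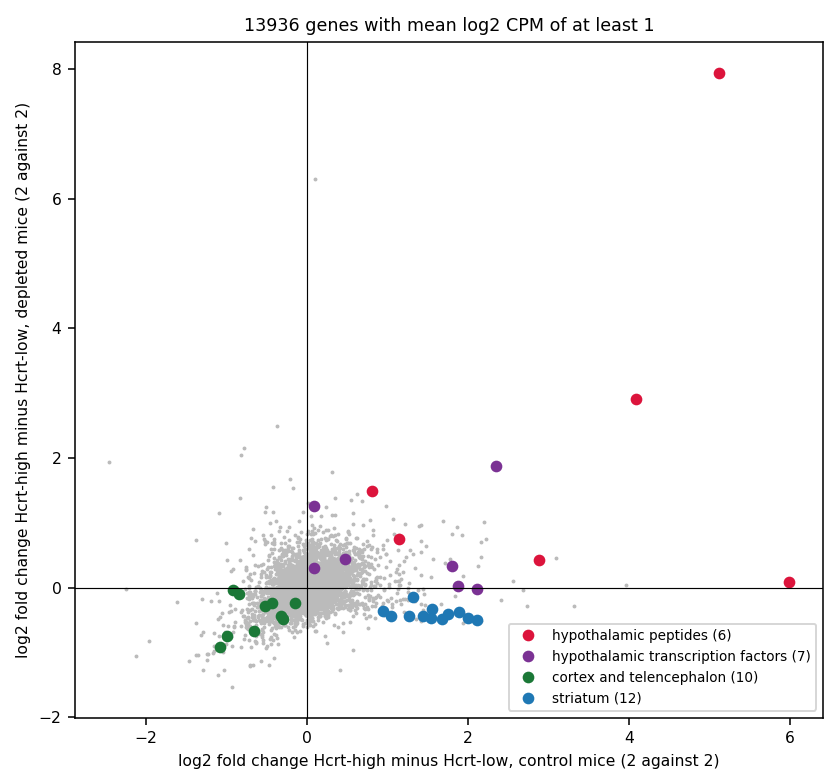
Log2 fold change of Hcrt-high against Hcrt-low in the control mice (x axis, 2 against 2) and in the depleted mice (y axis, 2 against 2), 1 point per gene, for the 13936 genes whose log2 CPM averaged 1 or more. Coloured points are members of the hypothalamic peptide, hypothalamic transcription factor, cortical and striatal lists above that mean, and grey points are all other genes. Pmch lies furthest from the origin, at 5.11 and 7.93, and Oxt lies to the right but near 0 on the y axis (5.99 and 0.08).

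Most diet calls were shared between the fits with and without the split. With the split as a covariate 12 genes rose (0.0581%) and 223 fell (1.08%) in depleted against control mice. Without it 11 rose and 228 fell, and 9 and 216 genes were called both ways. Without depleted mouse 2, 541 rose and 643 fell, whereas leaving out any other mouse gave 2 to 19 rises and 169 to 192 falls. Csf1r, the target of PLX3397, had 51.8, 65.0, 59.0 and 59.0 CPM in control mice 1 to 4 and 1.14, 0.38, 1.66 and 1.69 CPM in depleted mice 1 to 4 (log2 fold change -5.57, adjusted p = 2.64e-05). Its log2 fold change across the split was -0.01 (SE 0.27), and that of Entpd1, which encodes CD39, was -0.04 (SE 0.17). Genes whose diet call depended on the split included Cpne2 (adjusted p = 0.0192 with and 0.371 without it) and Sirt2 (0.0601 with and 0.0419 without it). No gene passed for the interaction of diet and split in edgeR or limma-voom, with 439 genes at an unadjusted p under 0.05 (2.12%), and DESeq2 called 6. Without depleted mouse 3, 40 genes passed for the interaction, and none did without any other mouse. Of the variance of log2 CPM over the tested genes, the split took 14.7%, diet 33.2% and their interaction 9.57%. Differences between mice within these cells took 42.4%. Any division of so few mice into equal groups takes some share, and the share of an arbitrary division was not computed. The shares of the split and of the interaction therefore do not by themselves show an effect.

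Total counts per library ranged from 48455538 to 68406688, so 1 CPM corresponded to 48.6 to 69.1 counts, and mitochondrial genes took 4.76% to 6.34%. The biological coefficient of variation was 15.1%. The labels describe 8 separate mice, so the p-values measure the spread between mice. No pair of mice of the same diet and Hcrt group agreed within sampling noise (chi-square of at least 12.3 per gene), and each was counted once.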

How the data were processed

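The authors deposited 1 table of whole-number counts for 53278 gene symbols in the 8 libraries, not normalized. The submitters' processing notes name the mm10 build, STAR, FastQC, MultiQC, DESeq and DESeq2, with versions, annotation and strand setting not given in the sources used here. In all, 49721 symbols (93.3%) matched GENCODE M21, which gave exon overlaps, shared by 19 of 66 named genes.

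Groups of the diets came from the sample titles, and the Hcrt split came from the counts. The members and the 28 gene lists were chosen with earlier results of these data known. Genes were filtered with filterByExpr, scaled with TMM and fitted in R 4.3.3 with edgeR 4.0.16 (glmQLFit, glmQLFTest) on diet and split, with a prior count of 2 for log2 CPM. Hcrt was left out of the Benjamini-Hochberg adjustment over 20671 genes, with a threshold of 0.05. Counts were simulated for this comparison (20672 genes, 3 runs), with changes placed in genes averaging at least 1 CPM. No diet effect was put in, and genes were drawn independently. The fit found 58.6% of the 1.5-fold changes, 86.6% of the 2-fold and 100% of the 4-fold ones, and 5.02% of calls were false. These shares hold for that setting and were not measured for weaker genes or for the calls above.

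Genes were named by rule: Hcrt and Pmch; up to 10 rises and 10 falls with adjusted p under 0.05, an average log2 CPM of 1 or more and groups that did not overlap; per list, members past the threshold or else the 2 with the smallest p; and Csf1r and Entpd1. Gm765, Olfr464, the other list members and the genes shared by both diets were named after their values were seen. Values of some list members are not reported here, though the list counts include them. Alternatives changed the scaling, the filter, the covariates, the tool (DESeq2 1.42.0, limma-voom 3.58.1), the split (log2 CPM of Hcrt or Pmch) and the mice included.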

Additional observations from a re-analysis of the deposited data

Results flagged for a closer look

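In a group of 4 mice a value was singled out where its gap to the nearest other mouse, divided by the range of the group on the log2(CPM + 0.04) scale, exceeded Dixon's 95% critical value. Chance does so in about 1 of 20 groups, and 4 of 132 groups were singled out. Hap1 of control mouse 1 stood above the other Hcrt-low mice (372 against 312 to 315 CPM, ratio 0.954). Hdc, the histamine-synthesis gene, was low in control mouse 3 among the Hcrt-high mice (2.89 against 5.52 to 6.18 CPM, ratio 0.85). Plekhg1, from the thalamus list, was low in control mouse 4 among the Hcrt-low mice (13.8 against 16.1 to 16.5 CPM, ratio 0.862). Chrna3, a nicotinic receptor subunit gene of the habenula, was high in depleted mouse 2 among the Hcrt-high mice (2.67 against 1.86 to 1.98 CPM, ratio 0.833).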

How the results depend on the processing

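Higher and lower calls across the split numbered 3 and 6. They were 3 and 6 with DESeq2 size factors, library size alone or limma-voom, and 3 and 5 with a filter of 1 CPM in 4 samples. They were 298 and 312 with no filter on low counts, 145 and 214 in DESeq2, 2 and 1 without the diet covariate, 2 and 3 with log2 CPM of Hcrt and 0 and 0 with log2 CPM of Pmch (2056 genes at an unadjusted p under 0.05). Leaving out 1 mouse gave 0 to 39 and 0 to 65, and dropping both control mouse 1 and depleted mouse 4 gave 118 and 124. Diet calls, 12 higher and 223 lower, were 581 and 692 with no filter, 5 and 145 with the 1 CPM filter, 157 and 371 in DESeq2, and 2 to 541 and 169 to 643 when 1 mouse was left out. The interaction had 0 calls, 6 in DESeq2 and 0 to 40 when 1 mouse was left out. Calls within the control mice were 0, 237 in DESeq2 and 0 to 1115 when 1 of them was left out, and those within the depleted mice 1, 80 and 1 to 222. A fit that leaves 1 mouse in a group assumes that it varies like the others. The cause of these shifts was not tested.

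Replicate numbers 1 and 4 are Hcrt-low and 2 and 3 Hcrt-high in both diets, so the number cannot be a fixed block beside the split. As a random replicate block in limma-voom (correlation -0.305) it gave 123 higher and 176 lower calls, and a fixed block gave 4 higher and 160 lower for diet. The split does not vary within a replicate number, so a negative block correlation narrows the standard errors of the split. The 123 and 176 calls are therefore not support. Deviations from the diet means correlated at -0.21, -0.16, 0.34 and -0.01 in the same-numbered mice, and the numbers were not taken to pair them.

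For single named genes 968 of 1090 alternative values kept direction and side of the threshold, 66 came to pass, 51 ceased to pass and 5 changed sign, all near 0 and none past the threshold. These were En1 (-0.0548 without depleted mouse 2, in a range up to 3.84 over the fits that left out 1 mouse), Eomes (-0.0030 without the diet covariate, -0.0373 in limma-voom and -0.00837 without control mouse 3, up to 1.04 without depleted mouse 2) and Aqp1 (0.14 without control mouse 1 and depleted mouse 4). Genes under about 1 CPM rest on fewer than 70 counts per library.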

Other observations

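All 10 immediate early genes, which neurons switch on after activity, had a negative log2 fold change (median -0.34), as did 49.1% of all genes. All 10 were also negative within the control mice and 7 of 10 within the depleted mice. At an unadjusted p under 0.05, 1 of 10 was lower (4.21% of all genes). That gene was Egr1, a zinc-finger factor, with 170, 168, 133 and 203 CPM in the Hcrt-high and 159, 308, 199 and 275 CPM in the Hcrt-low mice, which overlapped (log2 fold change -0.48, SE 0.21, adjusted p = 0.597). Arc, which encodes a synaptic plasticity protein, was highest in control mouse 4 at 252 CPM; the other 7 mice had 54.1 to 168 CPM.

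Clock genes had a median of -0.11 over 13 members. Arntl, the partner of CLOCK, stood at 25.4 to 28.4 CPM in the Hcrt-high and 27.6 to 34.1 CPM in the Hcrt-low mice (log2 fold change -0.21, SE 0.08, adjusted p = 0.478).

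Globin and erythroid genes, a sign of blood left in the tissue, had a median of 0.94 over 4 members, with summed levels of 2.35 to 4.82 CPM in the Hcrt-high and 1.34 to 2.03 CPM in the Hcrt-low mice. All 4 were positive (50.9% of all genes were), and 3 were higher at an unadjusted p under 0.05 (4.11% of all genes). Some rested on few counts, such as Hbb-bt with 5 to 20 per library, so these shares describe the list and are not support. Hba-a1 was apart between the groups, at 0.56 to 1.17 CPM against 0.16 to 0.44 CPM (log2 fold change 1.22, SE 0.38, adjusted p = 0.349), and globin paralogs share sequence.

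Choroid plexus genes had a median of -0.17 over 10 members. Ttr, the transthyretin gene of that tissue, had 335, 405, 427 and 439 CPM in the Hcrt-high and 357, 503, 63.9 and 710 CPM in the Hcrt-low mice, with depleted mouse 1 the lowest and depleted mouse 4 the highest of all 8. Meningeal genes had a median of 0.30 over 9 members, ependymal genes 0.25 over 6 and olfactory bulb genes 0.22 over 3 of 6, and none passed the threshold.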
